A study of Mus musculus with 16 samples.

Results

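Bone morphogenetic protein 10 (Bmp10), its receptors and the genes that answer to BMP signalling were followed in the right atrium (RA) and left atrium (LA) of mice. Members were all array probes annotated to Bmp10, Acvrl1, Eng, Bmpr2, Smad6, Smad7, Id1, Id2, Id3 and Hey1. These genes were selected on earlier RA against LA results of the same arrays. Of the 10 genes, 9 had a probe, which gave 12 of the 25697 probes, and Smad7 was not analysed here. Bmpr2, Smad6 and Id2 had 2 probes each, which were kept apart. The data come from 16 Illumina arrays, 1 for each atrium of 4 MF1 mice (dataset MF1_12) and 4 Swiss Agouti mice (dataset SA_12), all wild type and outbred. The labels give an age of 12 months for both datasets, as do the study's array methods and, in weeks, its table of samples. A different sentence of its methods gives 12 weeks for the Swiss Agouti mice. MF1_12 mice were male and SA_12 mice female according to the study, so that strain and sex change together and cannot be told apart. Each group has 4 arrays, and this number limits the precision.

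Bmp10 is a secreted ligand of the TGFb superfamily that atrial cardiomyocytes make. In the blood it binds Alk1, the receptor encoded by Acvrl1, together with the type II receptor Bmpr2 and the co-receptor endoglin (Eng) on endothelial and endocardial cells. The activated receptor phosphorylates Smad1, Smad5 and Smad9, which enter the nucleus with Smad4. They induce the inhibitory Smad6, the Id genes, whose proteins block helix-loop-helix transcription factors, and Hey1, a repressor also known as a Notch target.

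The promoters of the ligand and of 3 response genes are shown because these genes moved together with side on the arrays, as described below. Each is given 5′ to 3′ on the strand of the gene, over 260 bases ending 10 bases past the annotated start, from RefSeq (GRCm38.p6). Capitals mark 4 motifs searched on both strands, namely GTCTAGAC, the palindromic Smad box, GGCGCC, which BMP-activated Smads bind, its variant GGAGCC, which reads GGCTCC on the other strand, and AGATAA, which factors of the GATA family bind. Marked matches do not overlap one another.
Bmp10 (chr6:87428744-87429003, plus strand): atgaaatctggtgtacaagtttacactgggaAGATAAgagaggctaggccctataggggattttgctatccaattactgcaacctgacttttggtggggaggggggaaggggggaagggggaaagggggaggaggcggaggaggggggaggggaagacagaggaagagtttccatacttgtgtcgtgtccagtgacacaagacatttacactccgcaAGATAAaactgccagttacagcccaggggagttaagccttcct
Smad6 (chr9:64022050-64022309, minus strand): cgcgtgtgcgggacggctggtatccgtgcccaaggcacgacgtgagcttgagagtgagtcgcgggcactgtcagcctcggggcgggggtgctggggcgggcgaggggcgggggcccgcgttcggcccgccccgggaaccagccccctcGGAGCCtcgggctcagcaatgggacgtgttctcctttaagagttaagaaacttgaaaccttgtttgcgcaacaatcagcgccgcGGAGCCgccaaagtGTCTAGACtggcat
Id2 (chr12:25096083-25096342, minus strand): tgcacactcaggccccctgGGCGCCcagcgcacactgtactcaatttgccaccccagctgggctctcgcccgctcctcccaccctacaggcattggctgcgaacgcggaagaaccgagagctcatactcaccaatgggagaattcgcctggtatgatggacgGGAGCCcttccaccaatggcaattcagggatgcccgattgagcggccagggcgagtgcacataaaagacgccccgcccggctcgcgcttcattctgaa
Id3 (chr4:136143572-136143831, plus strand): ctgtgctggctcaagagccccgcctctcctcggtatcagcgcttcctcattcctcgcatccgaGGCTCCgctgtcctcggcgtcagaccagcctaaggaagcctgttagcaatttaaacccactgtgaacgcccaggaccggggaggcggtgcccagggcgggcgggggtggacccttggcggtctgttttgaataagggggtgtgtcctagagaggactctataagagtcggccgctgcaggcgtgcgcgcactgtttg

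The Bmp10 window held AGATAA 2 times, starting 219 and 33 bases before the annotated start, and none of the Smad motifs. AGATAA stood in 10.3% of the 32851 RefSeq promoter windows of this length. Smad6 held GTCTAGAC across its annotated start, a motif of 0.177% of windows, and GGAGCC 2 times. Id2 held GGCGCC once and GGAGCC once, and Id3 held GGAGCC once. GGCGCC stood in 9.96% and GGAGCC in 26.8% of all windows. Among the receptors, the Bmpr2 window held GGCGCC once and the Eng window none of the 4 motifs. RefSeq windows were at hand for 6 of the genes, and those of Acvrl1, Id1 and Hey1 were not searched. A match describes letters and is not evidence of binding.

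All values are the authors' normalized log2 values, which are set relative to a baseline for each probe. They compare arrays with one another, and hold neither an expression level nor a detection limit nor a comparison of levels between genes, and the fold of a probe near background may be understated. Differences are RA minus LA, with the standard error (SE) of limma. Because RA against LA chose these genes, their side differences are given as a description without a test. In whole atria, fewer cells of a type and less RNA per cell cannot be told apart.

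Bmp10 had the clearest separation of the sides. In MF1_12 its log2 values were 1.88, 1.19, 1.45 and 1.11 in RA, against -0.69, -0.70, -0.64 and -0.66 in LA. In SA_12 they were 2.85, 1.66, 3.24 and 1.43 in RA, against -1.40, -1.30, -1.30 and -1.42 in LA. Every RA array stood above every LA array in both datasets. The difference was 2.08 (SE 0.15), or 4.23-fold, in MF1_12 and 3.65 (SE 0.34), or 12.5-fold, in SA_12. It was the 11th highest of all probes in MF1_12 and the 2nd highest in SA_12.

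The spread of Bmp10 differed between the sides. Its SD over 4 arrays was 0.35 in RA and 0.028 in LA of MF1_12, and 0.89 in RA and 0.066 in LA of SA_12. In RA, a smaller SD was found for 98.2% of the array's probes in MF1_12 and for 99.9% in SA_12, whereas in LA it was found for 3.62% in MF1_12 and for 32.6% in SA_12. The RA arrays of SA_12 fell into a high pair (replicates 1 and 3) and a low pair (replicates 2 and 4). Since a background level cannot be read from centred values, whether the narrow LA values lie at background was not tested.

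**Figure D1:**
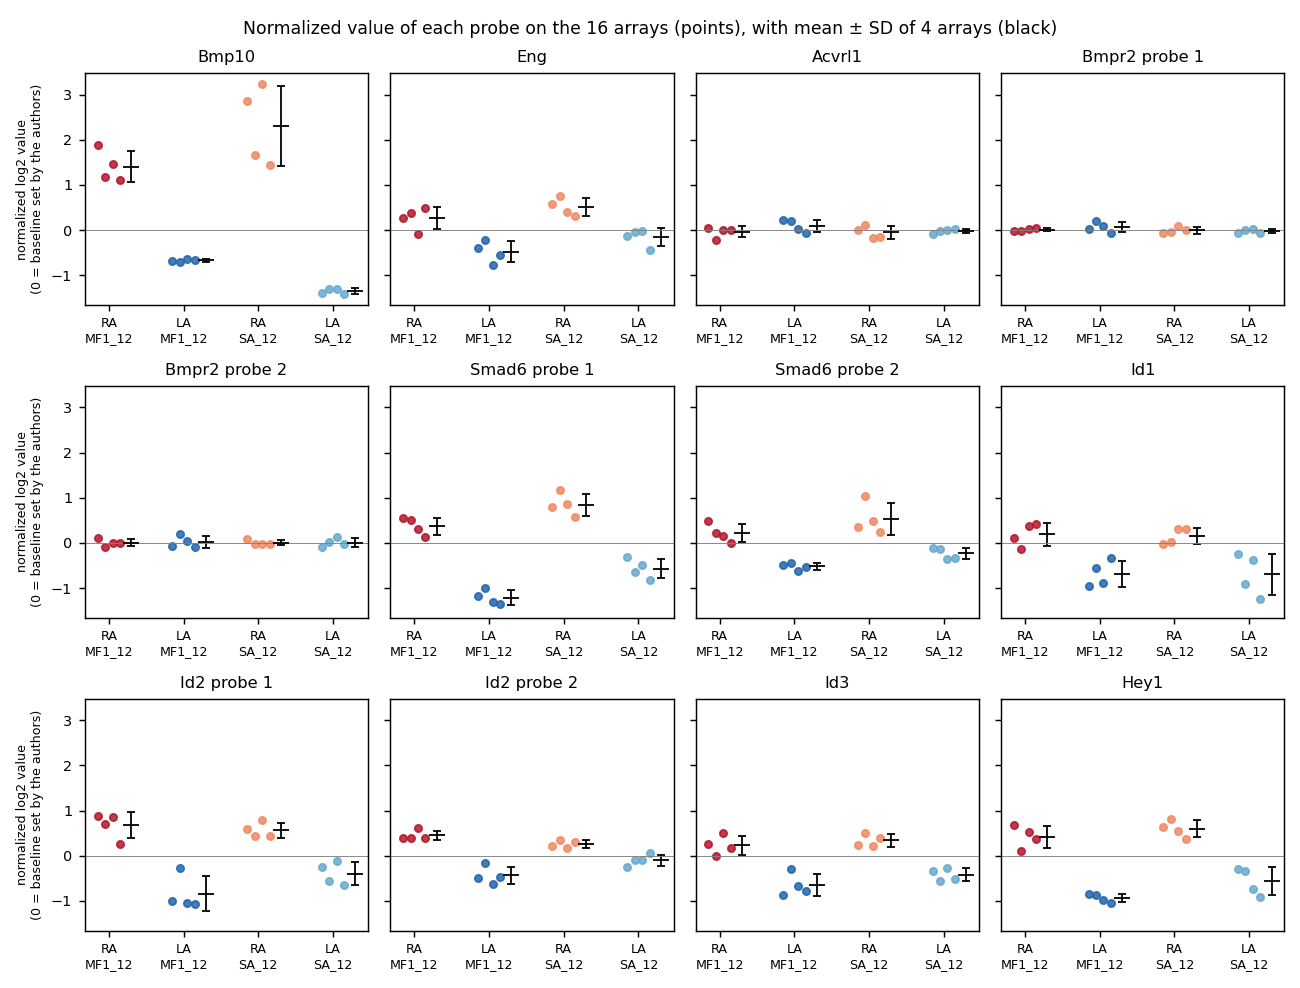
Normalized log2 value (y axis, 0 is the baseline of the authors) of each of the 12 probes on 16 arrays (points), with RA left of LA in MF1_12 and then in SA_12, and the mean ± SD of 4 arrays in black. Bmp10 separates the sides most and spreads widely in RA, while Acvrl1 and both Bmpr2 probes stay near 0 on every array.

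The receptors split into the co-receptor Eng and the signalling receptors. Eng had 0.27, 0.39, -0.08 and 0.50 in RA, against -0.39, -0.21, -0.77 and -0.55 in LA of MF1_12. In SA_12 it had 0.59, 0.75, 0.40 and 0.31 in RA, against -0.14, -0.04, -0.02 and -0.44 in LA. RA and LA arrays did not overlap in either dataset. The difference of Eng was 0.75 (SE 0.15), or 1.68-fold, in MF1_12 and 0.67 (SE 0.11), or 1.59-fold, in SA_12.

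For the receptor genes that carry the signal, Acvrl1 and Bmpr2, RA and LA arrays overlapped in both datasets. Acvrl1 lay between -0.21 and 0.05 in RA and between -0.08 and 0.22 in LA of MF1_12, and its difference was -0.13 (SE 0.09, 95% interval -0.32 to 0.07). In SA_12 the difference of Acvrl1 was -0.03 (SE 0.07, 95% interval -0.19 to 0.12). These intervals reach a fold of at most 1.25 in MF1_12 and 1.14 in SA_12. The first Bmpr2 probe differed by -0.06 (95% interval -0.19 to 0.08) in MF1_12 and by 0.01 (95% interval -0.10 to 0.13) in SA_12. For the second Bmpr2 probe the interval was -0.18 to 0.16 in MF1_12 and -0.13 to 0.12 in SA_12. No interval of these 3 probes reached the difference seen for Eng.

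For Smad6, the inhibitory Smad, the first probe had the highest difference of all response probes in both datasets. It had 0.54, 0.50, 0.30 and 0.14 in RA, against -1.18, -1.0, -1.30 and -1.35 in LA of MF1_12. In SA_12 it had 0.79, 1.17, 0.86 and 0.58 in RA, against -0.31, -0.65, -0.49 and -0.82 in LA. All RA arrays were above all LA arrays, and the difference was 1.58 (SE 0.11), or 2.99-fold, in MF1_12 and 1.42 (SE 0.13), or 2.67-fold, in SA_12. The second Smad6 probe ran the same way with smaller differences of 0.74 (SE 0.10) in MF1_12 and 0.76 (SE 0.15) in SA_12. Its value on the RA arrays of SA_12 was highest in replicate 2, at 1.04, one of the pair with low Bmp10.

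Hey1 had the highest difference among the response genes with a single probe. It had 0.68, 0.10, 0.52 and 0.38 in RA, against -0.85, -0.86, -0.99 and -1.04 in LA of MF1_12. In SA_12 it had 0.64, 0.82, 0.56 and 0.37 in RA, against -0.28, -0.34, -0.73 and -0.92 in LA. The sides did not overlap, and the difference of Hey1 was 1.35 (SE 0.11), or 2.55-fold, in MF1_12 and 1.17 (SE 0.14), or 2.24-fold, in SA_12.

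The Id genes followed the same side with more scatter. The first Id2 probe had 0.87, 0.71, 0.86 and 0.27 in RA, against -0.99, -0.27, -1.05 and -1.07 in LA of MF1_12, where LA replicate 2 stood apart from the other LA arrays. In SA_12 this probe had 0.60, 0.43, 0.80 and 0.43 in RA, against -0.26, -0.56, -0.11 and -0.65 in LA. Its difference was 1.52 (SE 0.20), or 2.87-fold, in MF1_12 and 0.96 (SE 0.12), or 1.94-fold, in SA_12. The second Id2 probe differed by 0.89 (SE 0.10), or 1.85-fold, in MF1_12 and by 0.36 (SE 0.07), or 1.28-fold, in SA_12. The probes of Id2 thus had the same direction and unequal size.

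Id1 had 0.12, -0.14, 0.37 and 0.42 in RA, against -0.96, -0.55, -0.88 and -0.34 in LA of MF1_12. In SA_12 it had -0.03, 0.03, 0.32 and 0.30 in RA, against -0.25, -0.90, -0.39 and -1.24 in LA, and these LA values had the widest SD (0.46) of any member in LA. The difference of Id1 was 0.88 (SE 0.16) in MF1_12 and 0.85 (SE 0.19) in SA_12. Id3 differed by 0.88 (SE 0.14), or 1.84-fold, in MF1_12 and by 0.76 (SE 0.08), or 1.69-fold, in SA_12. For both genes the lowest RA array was above the highest LA array in each dataset.

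In all, every RA array was above every LA array for 9 of the 12 probes in each dataset, and these were the same 9. Over all probes this held for 3.77% in MF1_12 and 3.71% in SA_12. The study's threshold, a fold above 1.5 with a Benjamini-Hochberg adjusted p under 0.05, was passed by 8 of the 12 probes in MF1_12, where 0.494% of all probes passed with higher values in RA. In SA_12 it was passed by 7 of the 12, where 0.342% did. Both datasets shared 6 passed probes of 5 genes, namely Bmp10, Smad6, Id2, Id3 and Hey1. Nothing is read from these shares, since this contrast chose the genes. The 4 probes that did not pass in MF1_12 were those of Eng, Acvrl1 and Bmpr2. In a fit of MF1_12 blocked on the replicate number, 9 of the 12 passed, Eng added. The 5 that did not pass in SA_12 were those of Id1, Acvrl1 and Bmpr2 and the second of Id2. Id1 had an adjusted p of 0.0596 in limma in SA_12. By its own analysis, the study lists Id1 as enriched in RA in each of its array datasets. Id1 and Id3 lost their call in MF1_12 when any of several single arrays was left out, as did the second Smad6 probe in SA_12, whereas Bmp10, Hey1, the first Smad6 probe and the first Id2 probe kept theirs without any single array.

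**Figure D2:**
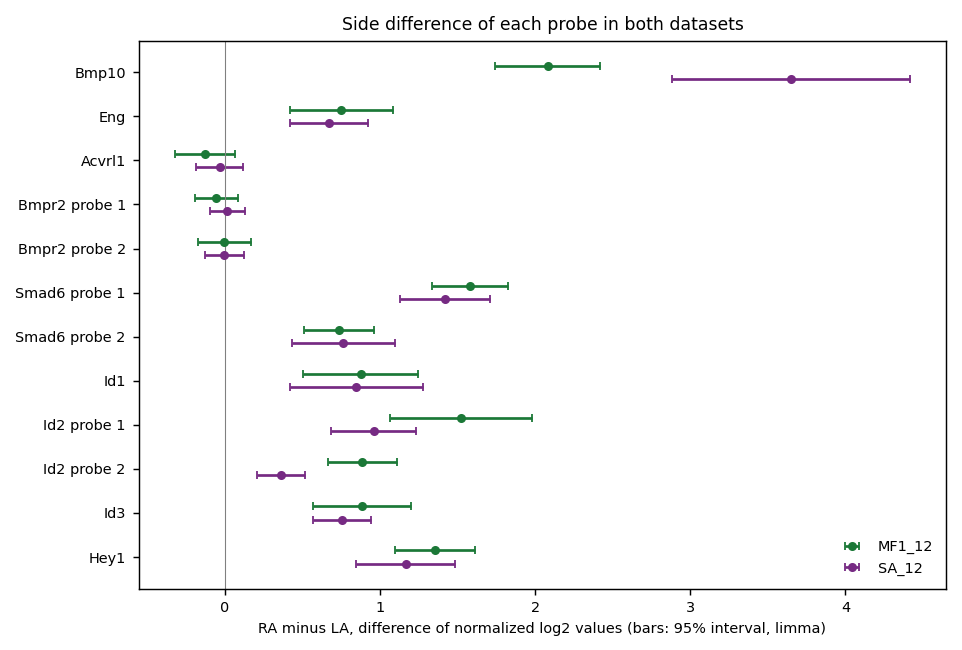
RA minus LA difference of normalized log2 values (x axis) for each probe (y axis) in MF1_12 and SA_12, with 95% intervals from limma. Bmp10 differs by 2.08 in MF1_12 and 3.65 in SA_12, and the intervals of Acvrl1 and Bmpr2 span 0.

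Whether the side difference depended on the dataset was tested on all 16 arrays as (RA minus LA in MF1_12) minus (RA minus LA in SA_12), a contrast that did not choose the genes. None of the 12 probes passed at an adjusted p under 0.05 in limma, whereas 2 of all 25697 probes did (0.00778%), and 3 of the 12 and 1895 of all probes had an unadjusted p under 0.05. The 3 were Bmp10 and both Id2 probes. For Bmp10 the contrast was -1.57 (SE 0.43, 95% interval -2.47 to -0.66, adjusted p = 0.319 in limma), the larger difference being that of SA_12. For the second Id2 probe it was 0.52 (SE 0.13, adjusted p = 0.24 in limma), and for the first it was 0.56 (SE 0.26, adjusted p = 0.666 in limma), the larger difference of both being that of MF1_12. Without LA replicate 2 of MF1_12 the second Id2 probe passed (contrast 0.62, adjusted p = 0.0444 in limma). Of the 7 response probes, 6 had a larger difference in MF1_12, the second Smad6 probe being the exception. Among these 6, only the Id2 probes had an interval of the contrast that left out 0. The share of all probes with a larger difference in MF1_12 was not counted, so nothing is read from the 6. For Hey1 the interval of the contrast was -0.24 to 0.62 and for the first Smad6 probe -0.23 to 0.55, and both included 0.

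Within a side, Bmp10 varied between mice in RA, which allowed a test of whether the other genes varied with it. Deviations from the group mean were correlated over the 8 arrays of a side, with exact permutation within each dataset, in 22 relations. In RA, 5 of 11 probes had a correlation above 0, and Pearson's r ranged from -0.52 to 0.69. The highest was that of the first Id2 probe (r = 0.69, two-sided exact permutation p = 0.0312, adjusted p = 0.686), with Spearman's rho of 0.76 (exact permutation p = 0.0139, adjusted p = 0.306). Without the 2 arrays farthest from the median of Bmp10, r of this probe was 0.60. A dataset alone holds 4 arrays of a side, too few for a correlation within it. The second Id2 probe had the lowest correlation (r = -0.52, rho = -0.71, two-sided exact permutation p = 0.188 and p = 0.135, adjusted p = 0.988 and p = 1.0), so that the probes of one gene disagreed in sign. The first Smad6 probe had r = 0.14, which turned to -0.25 without the 2 farthest arrays, and Hey1 had r = 0.27, then 0.19. In all, 3 of the 11 correlations in RA changed sign in this way. In LA, r ranged from -0.31 to 0.27 and the lowest exact permutation p was 0.372, over the narrow spread of Bmp10 there. Without the 2 farthest LA arrays, 4 of the 11 changed sign, r of the first Smad6 probe was -0.86, and 1 of the 11 was above 0 in place of 5. None of the 22 passed after adjustment, where 0.00174 was the smallest p these permutations can give.

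**Figure D3:**
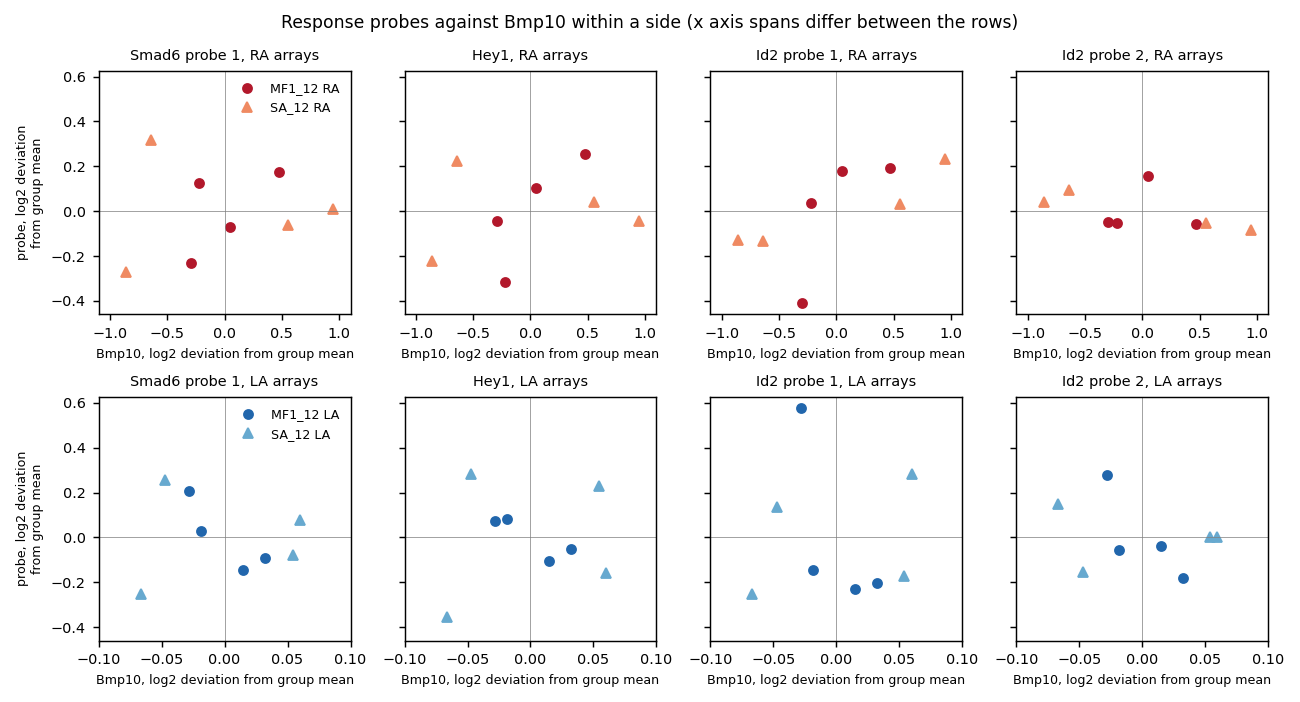
Deviation of a response probe from its group mean (y axis, log2) against that of Bmp10 (x axis, log2), for RA arrays (top row) and LA arrays (bottom row, where the x axis is narrower). In RA the first Id2 probe has r = 0.69 with Bmp10 and the second r = -0.52, over 8 arrays each.

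Over all 16 arrays, after the mean of each dataset was taken out, the pattern of Bmp10 was most like that of Igfbp3, which binds insulin-like growth factors (r = 0.97). Next came the first probe of Arpp21, a cyclic AMP-regulated phosphoprotein (r = 0.95), and Vsig4, a complement receptor of macrophages (r = 0.94). The other probes of the 10 most alike were the second of Arpp21, Hamp2, a hepcidin, Fxyd3, which regulates the sodium pump, Arsa, a lysosomal sulphatase, a probe of Tbx20, a cardiac T-box factor, Msc, a helix-loop-helix factor, and Col25a1, a collagen, with r between 0.90 and 0.91. These correlations are a description, since the arrays share their side and, in MF1_12, probably the mouse. High likeness did not need a large difference, as Col25a1 differed by only 0.05 (SE 0.04) in MF1_12 and 0.09 (SE 0.04) in SA_12. Its adjusted p in limma was 0.718 in MF1_12 and 0.375 in SA_12. Col25a1 was picked for its high r out of all probes, and whether its likeness goes beyond this choice was not tested. Among the members, the first Smad6 probe had r = 0.90 (13th of all probes), Hey1 0.88 (21st), the first Id2 probe 0.83 (60th), the second Smad6 probe 0.83 (61st), Id3 0.82 (73rd), Eng 0.79 (107th) and Id1 0.78 (119th). The second Id2 probe was the least alike of the response probes, at 0.69 (347th). Acvrl1 had r = -0.30 and the Bmpr2 probes -0.04 and 0.04. The most opposite named genes were Cxcl12, a chemokine (r = -0.97), Reln, which encodes reelin (r = -0.94), and Slc24a3, a sodium, potassium and calcium exchanger (r = -0.91). The 5 most opposite probes included 2 without a gene name in the annotation used.

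The rest of the pathway was described by lists of genes other than the members. For each, genes with a passed probe are counted beside the median difference over genes. Over all 16593 named genes, 0.663% passed with higher values in RA and 0.386% with higher values in LA in MF1_12, and 0.464% and 0.35% did in SA_12, with a median near 0 in both. Of 26 other BMP and TGFb ligands, none passed in MF1_12. Their median was 0.0013 in MF1_12 and -0.0009 in SA_12. Over these genes the differences ranged from -1.15 to 0.23 in MF1_12 and from -0.69 to 0.14 in SA_12. Bmp3, an atypical BMP that opposes the others, was lower in RA of SA_12 (difference -0.69, SE 0.12, adjusted p = 0.0158 in limma) and differed by -0.20 (SE 0.34) in MF1_12. Without RA replicate 3 of SA_12 it did not pass (difference -0.66, adjusted p = 0.0585 in limma). Gdf2, which encodes the other ligand of Alk1 (Bmp9) and is known mainly from liver, differed by 0.06 (SE 0.06) in MF1_12 and by -0.0043 (SE 0.05) in SA_12. Bmp4 differed by 0.16 (SE 0.11) in MF1_12 and -0.26 (SE 0.10) in SA_12.

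Of 14 further receptors and co-receptors, none passed in either dataset. In MF1_12, 10 of the 14 had a difference above 0 (median 0.08), and in SA_12 6 did (median -0.02). Acvr1, the type I receptor Alk2, had the highest difference of the list, at 0.52 (SE 0.08, adjusted p = 0.0177 in limma) in MF1_12 and 0.40 (SE 0.08, adjusted p = 0.0395 in limma) in SA_12, at folds of 1.43 and 1.32. None of 14 Smads and intracellular regulators passed, with a median of -0.0015 in MF1_12 and 0.0077 in SA_12. But with the replicate block Skil, a repressor of Smad signalling, passed with higher values in RA of MF1_12 (difference 0.61, adjusted p = 0.0416 in limma). Of 15 extracellular antagonists, Htra1, a secreted protease, passed by 1 of its probes in MF1_12, where it was lower in RA (difference -0.69, SE 0.07, adjusted p = 0.0027 in limma). In SA_12 that probe of Htra1 differed by -0.21 (SE 0.09, adjusted p = 0.405 in limma). Among the 15 antagonists, 6 were above 0 in MF1_12 (median -0.01) and 2 in SA_12 (median -0.04). None of 6 genes of pro-peptide processing and matrix binding passed, among them Furin, the protease that cleaves BMP precursors. The median of these 6 genes was 0.04 in each dataset.

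Of 20 other genes known to respond to BMP signalling, 2 passed with higher values in RA in both datasets. They were Hamp, which encodes hepcidin and is known as a BMP target in liver, and its close copy Hamp2. Hamp2 had 2.87, 1.37, 1.92 and 1.57 in RA, against -1.75, -2.0, -1.87 and -1.40 in LA of MF1_12, and 1.98, 1.65, 1.72 and 1.81 in RA, against -1.29, -1.25, -1.60 and -1.51 in LA of SA_12. Its difference was 3.69 (SE 0.30, adjusted p = 0.000934 in limma) in MF1_12 and 3.20 (SE 0.09, adjusted p = 5.55e-08 in limma) in SA_12. Hamp differed by 4.10 (SE 0.50) in MF1_12 and 2.81 (SE 0.11) in SA_12. The sequences of the copies are alike, so that their probes may not tell them apart. Atoh8, a helix-loop-helix factor, had a difference of 0.49 (SE 0.08) in MF1_12 and 0.52 (SE 0.07) in SA_12, at a fold of 1.41 and 1.43 that stayed under the threshold. Myocd, the coactivator myocardin, was lower in RA of MF1_12 by 1 of its 3 probes (difference -0.59, SE 0.09, adjusted p = 0.0165 in limma), a fold of 1.51 that lies at the threshold. This call of Myocd was lost when RA replicate 1, RA replicate 4, LA replicate 1 or LA replicate 3 was left out (differences of -0.60 to -0.53). In SA_12 the probe differed by -0.30 (SE 0.18). Id4, Bambi, a decoy receptor, and Hey2 did not pass. The median of this list was 0.08 in MF1_12 and 0.02 in SA_12.

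Among genes of the Alk1 branch in endothelium (20 measured), Pecam1, an adhesion molecule of endothelial cells, passed by 1 of its 2 probes in MF1_12 (difference 0.61, SE 0.08, adjusted p = 0.00857 in limma). Its fold of 1.52 fell under the threshold without LA replicate 2 or RA replicate 3 or 4 (1.47 to 1.49). In SA_12 that probe of Pecam1 differed by 0.18 (SE 0.16) and no gene of the list passed. With the replicate block Gja4, a connexin of arteries, passed with lower values in RA of MF1_12 (difference -0.69, adjusted p = 0.0377 in limma). Kdr, the main VEGF receptor, differed by -0.07 (SE 0.06) in MF1_12 and 0.07 (SE 0.05) in SA_12. Among the 20 genes of this branch, 9 were above 0 in MF1_12 (median -0.04) and 12 in SA_12 (median 0.06). None of 17 atrial and left-right transcription factors passed, with a median of 0.10 in MF1_12 and of 0.06 in SA_12. With the replicate block Gata6, a GATA factor, passed with higher values in RA of MF1_12 (difference 0.61, adjusted p = 0.0105 in limma).

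**Figure D4:**
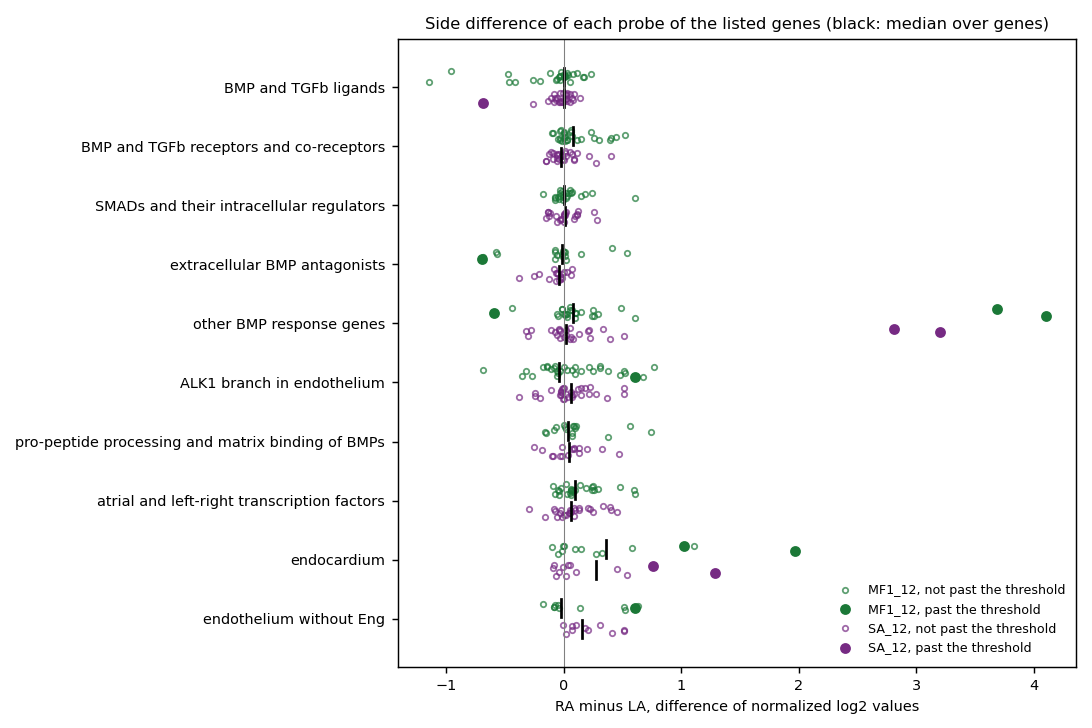
RA minus LA difference of normalized log2 values (x axis) for each probe of the listed genes (rows), in MF1_12 and SA_12, with filled points past the threshold and the median over genes in black. Among the pathway lists, Hamp and Hamp2 stand far to the right in both datasets. The median of the ligands other than Bmp10 lies near 0, with single genes away from it.

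Markers of cells that carry Alk1 were mixed. Of 8 endocardial markers, 7 had a difference above 0 in MF1_12 (median 0.36) and 5 in SA_12 (median 0.28). Of these, Vwf, the von Willebrand factor, and Tmem108 passed with higher values in RA in both datasets. The study also lists both genes as enriched in RA. All marker lists were written with earlier results of these data known, so their array means are given only as a description. The mean over the endocardial list ranged over arrays from 0.18 to 0.34 in RA, against -0.50 to -0.23 in LA of MF1_12. In SA_12 it ranged from 0.09 to 0.27 in RA, against -0.23 to -0.14 in LA. Of 8 endothelial markers other than Eng, 4 had a difference above 0 in MF1_12 (median -0.02) and 7 in SA_12 (median 0.15). The range of their mean was 0.07 to 0.17 in RA, against -0.11 to 0.03 in LA of MF1_12, and 0.06 to 0.23 in RA, against -0.12 to -0.04 in LA of SA_12. Their part in the differences of Eng, Smad6, Hey1 and the Id genes was not tested. The atrial cardiomyocyte markers, such as Nppa and Myl7, had none past the threshold, and their array means overlapped between the sides.

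Single markers of other tissue differed with side, while some of their lists were mixed and others ran mostly one way. Of 7 ventricular cardiomyocyte markers, 3 had a difference above 0 in each dataset, with a median of -0.01 in MF1_12 and -0.03 in SA_12. Among them Myl2, the ventricular myosin light chain, had 0.45, 4.38, 4.10 and 5.62 in RA of SA_12, against -0.40, -0.75, -0.46 and -0.83 in LA. Its difference of 4.25 in SA_12 passed and was the highest of all 16593 named genes there. On the RA arrays of SA_12 with high Bmp10, Myl2 was 0.45 in replicate 1 and 4.10 in replicate 3, and a relation between them was not tested. In MF1_12, Myl2 had -0.63, 1.53, 0.44 and 1.14 in RA, against -0.21, -0.42, -0.65 and -0.58 in LA. Myl3, another ventricular light chain, differed by -1.36 (SE 0.31) in MF1_12 and 0.16 (SE 0.21) in SA_12. All 6 epicardial genes had a difference above 0 in both datasets. The epicardial genes Wt1 and Upk3b passed with higher values in RA of MF1_12, where array means of that list were 0.08 to 0.35 in RA, against -0.37 to -0.10 in LA. Tcf21, listed as a fibroblast marker, passed with higher values in RA of both datasets, whereas 2 of the 8 fibroblast genes were above 0 in MF1_12 (median -0.19) and 3 in SA_12 (median -0.06), and Lum passed with lower values in RA of SA_12. C1qb and Cd163 of macrophages and Alas2 of erythroid cells passed with higher values in RA of SA_12. In both datasets 4 of 5 macrophage genes and 3 of 3 erythroid genes were above 0. Cd163 did not pass in MF1_12 here, although the study lists it as enriched in RA in each of its array datasets. No gene of the sinus node, smooth muscle or adipocyte lists passed. Of the smooth muscle genes, 0 of 6 were above 0 in MF1_12 and 1 of 6 in SA_12. Of the sinus node genes, 4 of 5 were above 0 in each dataset. Of the adipocyte genes, 4 of 7 were above 0 in MF1_12 and 6 of 7 in SA_12. The part of these cells in the differences of the members was not tested. LA replicate 2 of MF1_12 deviated most from its group over all probes (SD 0.23, against 0.10 to 0.15 for the other arrays of MF1_12).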

How the data were processed

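Total RNA of RA and LA was hybridized to Illumina MouseRef-8 arrays, 1 array per atrium. Signals were read in Genome Studio. In GeneSpring, the authors applied quantile normalization within a dataset and a baseline at the median over samples. The deposited normalized log2 values were used without further normalization. The log base was taken as 2 because differences of these values match folds that the study lists. Folds are ratios of these deposited log2 values turned back to a linear scale. Another deposited table, of signals before normalization, has 32 columns of per-sample values that could not be tied to samples and were not used, so that no detection limit was set. The study gives 4 mice for each dataset.

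RA minus LA was fitted in each dataset, over all 25697 probes, with limma 3.58.1 in R 4.3.3 (lmFit, eBayes) and Benjamini-Hochberg adjustment. The dataset contrast was fitted on all 16 arrays as 4 groups. Scripts were tested on simulated data. Deviations of RA and LA arrays with the same number correlated at 0.23 to 0.499 in MF1_12, which pairs them, and at -0.112 to 0.138 in SA_12, which does not. The highest values in SA_12 were between unlike numbers, RA 1 with LA 2 at 0.33 and RA 2 with LA 1 at 0.231. The replicate block of SA_12 may thus join atria of different mice. The pairing rests on this check, since the labels only number the replicates. The fits given have no block.

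The genes named were all probes of the members, every list gene past the threshold with up to 3 others, the 10 probes most like Bmp10 and the 5 least like it. The members and lists were chosen with earlier results of these data known. Probe gene names come from the platform annotation, which gives 1 gene for 23978 probes. Alternatives were the replicate block, an ordinary t-test, array weights, 1 fit of all arrays, the adjusted p alone and leaving out each array.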

Additional observations from a re-analysis of the deposited data

Results flagged for a closer look

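Of 48 groups of 4 arrays (12 probes in 4 groups), 4 held an array far from its group by Dixon's criterion, where chance flags about 1 in 20 groups. The first Id2 probe had -0.27 in LA replicate 2 of MF1_12, against -1.07 to -0.99 on the other LA arrays. The second Id2 probe had 0.60 in RA replicate 3 of MF1_12, against 0.39 to 0.40 on the other RA arrays. Acvrl1 had -0.21 in RA replicate 2 of MF1_12, against 0.01 to 0.05 on the others. The second Bmpr2 probe had 0.080 in RA replicate 1 of SA_12, against -0.03 to -0.02 on the others.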

How the results depend on the processing

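With an ordinary t-test for each probe, run on the same values and adjusted by Benjamini-Hochberg, 3 of the 12 probes passed in MF1_12 (Bmp10, the first Smad6 probe and Hey1) and 1 in SA_12 (the first Smad6 probe), in place of 8 and 7. With the replicate block, 9 passed in MF1_12, Eng being added, and 7 in SA_12. The block also added Skil, Gja4 and Gata6 among the list genes of MF1_12. Leaving out each array in turn gave 6 to 9 passed probes in MF1_12 and 5 to 7 in SA_12, and 0 to 1 for the contrast between datasets, the 1 being the second Id2 probe without LA replicate 2 of MF1_12. In MF1_12, Id1 lost its call in the fits that left out LA replicates 1 and 3 and RA replicates 1, 3 and 4 one by one, and Id3 in all but those without a replicate 2, with differences of 0.78 to 0.90 for Id1 and 0.79 to 0.90 for Id3. Eng passed there without LA replicate 2 (difference 0.84) or RA replicate 3 (0.87). The second Smad6 probe lost it in SA_12 without any LA array or RA replicate 3 (differences of 0.72 to 0.80), and Eng without LA replicate 4 (0.58), while Id1 passed without LA replicate 1 (adjusted p = 0.031 in limma). Among the list genes of MF1_12, leaving out LA replicate 2 added Tgfbr1, Skil, Gja5 and, lower in RA, Chrd. With the ordinary t-test Bmp3, Myocd, Pecam1 and, in MF1_12, Hamp did not pass. With all 16 arrays in one fit, Bmp3 and Myocd did not pass, while Skil, Gata6, Gja4 and Gja5 did in MF1_12. Array weights added Skil, Chrd and Gja5 there and took out Pecam1. The cause was not tested. All 288 alternative values of the RA minus LA differences of the members kept within the spread between replicates. This was nearly fixed in advance, since the block, the t-test and the fit of all arrays leave the difference unchanged. Leaving out 1 of 4 arrays can move it only a little, so that nothing is read from this count. Of the 11 within-side correlations with Bmp10, 8 in RA and 0 in LA were above 0 in MF1_12 alone, and 6 in RA and 9 in LA in SA_12 alone, in place of 5 and 5 over both datasets. Of the 10 probes most like Bmp10, 4 remained when the lower correlation of the datasets was ranked instead. The normalization from raw signals and the filter on dim probes that had been planned were not run, because those columns could not be tied to samples. Centred values and 4 arrays per group limit what can be said of the receptors to the intervals given.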
